A study of Homo sapiens with 2 samples.

Results

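The EGR, NR4A and serum response early genes were followed in T24/R cells, human bladder cells that grow attached and are named after the urothelial carcinoma line T24, after THZ1 or its solvent DMSO. The 10 genes, EGR1, EGR2, EGR3, NR4A1, NR4A2, NR4A3, IER2, IER3, IER5 and SRF, were taken by symbol from the 58884 Ensembl gene IDs that both libraries list, and all 10 were found. They are immediate early genes outside the AP-1 family, and they were selected on that role with the log2 ratios of this very comparison known, so their values are descriptions. The THZ1 group received 1600 nM THZ1 for 6 h and the DMSO group the solvent for 6 h, with 10% serum in the medium of both groups. There was 1 library per group, so replicates cannot back any difference and p-values are left out. THZ1 is a covalent inhibitor of CDK7, a TFIIH subunit that phosphorylates RNA polymerase II, and it also hits CDK12 and CDK13.

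Immediate early genes are switched on within minutes of a growth factor or stress signal, without new protein synthesis. Their RNAs are as a rule short-lived. At many of them serum response factor (SRF) sits on a CArG box next to a ternary complex factor that ERK phosphorylates, and CREB on a cAMP response element adds a further input. The EGR proteins are zinc finger activators, the NR4A proteins are nuclear receptors that act without a known natural ligand, and the IER genes encode small proteins unrelated in sequence to these families.

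The THZ1 library held 18313827 counts and the DMSO library 18445831. Levels are CPM scaled with TMM factors (normalized CPM), and differences are log2 ratios of THZ1 over DMSO with exact 95% intervals that cover counting error only. A gene was assessed when either library held 30 or more of its counts, which left 12457 genes, and a call of higher or lower needed a ratio of 2-fold or more with an interval that leaves out a ratio of 1. Mitochondrially encoded mRNAs took 14.9% of counts in THZ1 and 6.60% in DMSO, and scaling to them moves all log2 ratios by −1.69, while scaling to total counts moves them by −0.51. Of 11 epithelial and urothelial markers only KRT8 and KRT18 reached 30 counts in either library, and UPK3A had 0 counts in both. KRT8 had 100 counts in THZ1 and 77 in DMSO, and KRT18 had 494 and 696. Of 3 mesenchymal markers, VIM had 84532 counts in THZ1 and 63269 in DMSO, CDH2 had 3738 and 3948, and COL1A1 had 20 and 30. Leukocyte and endothelial markers had at most 4 counts in a library. In bulk RNA, fewer cells that use a gene and less of its RNA per cell cannot be told apart.

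The bases before the transcript starts of the early genes are shown first, because EGR1 and SRF, which lie on opposite sides of 0 below, share the same kind of element there. RefSeq promoter sequences (GRCh38.p14) were at hand for 7 of the 10 genes, with 11 start sites. The 250 bases before each start are written 5′ to 3′ on the gene's strand, with CArG boxes (the 10-base SRF element with an AT-rich core) and the half-site TGACG of the cAMP response element in capitals, the half-site on either strand.
EGR1, chr5:138465229-138465478, plus strand: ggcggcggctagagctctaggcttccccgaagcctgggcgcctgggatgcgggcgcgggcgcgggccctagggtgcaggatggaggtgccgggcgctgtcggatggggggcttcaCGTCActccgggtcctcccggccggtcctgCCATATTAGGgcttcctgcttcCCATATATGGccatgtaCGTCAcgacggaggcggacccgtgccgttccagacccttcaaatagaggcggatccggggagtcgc
EGR2, chr10:62816367-62816616, minus strand: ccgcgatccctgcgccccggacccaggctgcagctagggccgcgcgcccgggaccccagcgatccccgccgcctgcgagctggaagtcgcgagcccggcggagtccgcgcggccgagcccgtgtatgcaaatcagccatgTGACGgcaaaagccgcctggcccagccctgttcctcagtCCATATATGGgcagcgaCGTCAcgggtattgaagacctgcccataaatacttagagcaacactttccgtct
SRF, chr6:43171019-43171268, plus strand: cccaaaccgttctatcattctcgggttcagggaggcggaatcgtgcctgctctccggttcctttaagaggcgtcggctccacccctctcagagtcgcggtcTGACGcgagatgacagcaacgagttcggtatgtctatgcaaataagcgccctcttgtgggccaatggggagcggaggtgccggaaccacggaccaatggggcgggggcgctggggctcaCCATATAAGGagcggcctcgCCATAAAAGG
NR4A3, chr9:99821635-99821884, plus strand: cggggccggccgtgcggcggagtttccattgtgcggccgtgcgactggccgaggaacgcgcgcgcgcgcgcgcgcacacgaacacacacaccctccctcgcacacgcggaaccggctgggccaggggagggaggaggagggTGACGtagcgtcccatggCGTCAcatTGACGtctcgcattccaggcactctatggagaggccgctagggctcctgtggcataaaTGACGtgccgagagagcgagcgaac
IER5, chr1:181088450-181088699, plus strand: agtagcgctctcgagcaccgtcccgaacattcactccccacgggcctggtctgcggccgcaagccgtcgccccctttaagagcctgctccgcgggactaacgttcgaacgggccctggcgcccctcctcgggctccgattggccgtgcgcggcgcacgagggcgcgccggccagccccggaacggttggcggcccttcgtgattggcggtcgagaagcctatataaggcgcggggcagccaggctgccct

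EGR1 held 2 CArG boxes, CCATATTAGG and CCATATATGG, which begin 105 and 83 bases before the start, and SRF held 2, CCATATAAGG and CCATAAAAGG, which begin 30 and 10 bases before it. The start of EGR2 shown held 1, which begins 71 bases before. Of all 35116 RefSeq windows of the same length, 1.16% held a CArG box and 11 held at least 2, EGR1 and SRF among them. TGACG or its complement was found 4 times in NR4A3, 2 times each in EGR1 and EGR2, and once each in SRF and IER2, where 21.2% of all windows held it and 1.01% held it 3 times or more. IER5, both starts of NR4A1, the second start of SRF and the other starts of EGR2 held neither word. The EGR-type word GCGNGGGCG was found once each in EGR1 and SRF, where 8.41% of all windows held it on either strand. The word TATAAA and the NR4A word AAAGGTCA were in none of the 11 windows, beside 10.7% and 1.05% of all windows. These matches are descriptions of the letters and not of binding.

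**Figure D1:**
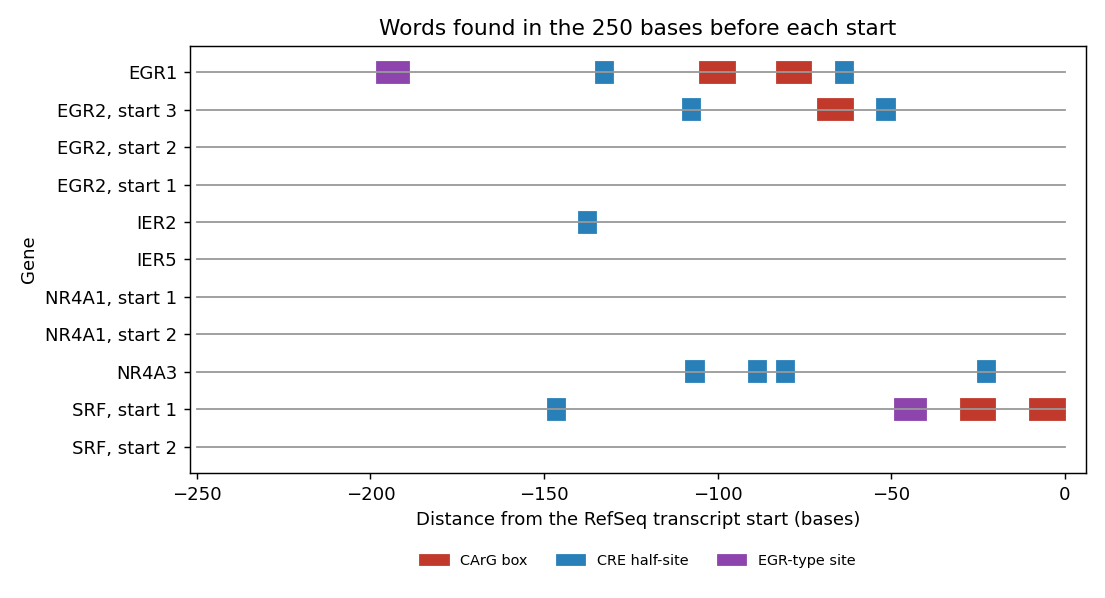
Positions of CArG boxes, of the half-site TGACG (CRE half-site) and of the word GCGNGGGCG (EGR-type site) on either strand, against the distance in bases from each RefSeq start, 1 line per start. EGR1 and SRF each carry 2 CArG boxes, at different distances from the start.

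With TMM scaling EGR1 and NR4A2 were several-fold higher after THZ1, NR4A1 was higher from a low level, and IER5 was lower. The other genes with enough counts lay within 2-fold. Of the 10 genes, 8 were assessed, and 3 of these were called higher (EGR1, NR4A2 and NR4A1), 1 lower (IER5) and 4 neither (NR4A3, IER2, IER3 and SRF). Among all assessed genes 9.7% were called higher and 21.3% lower. The median log2 ratio was 0.53 for the 8 genes and −0.03 for all assessed genes. On the mitochondrial reference 0 of the 8 were called higher and 5 lower, with EGR1 at 0.75 and NR4A2 at 0.48. Of all 12457 assessed genes 10000 were called lower on that reference. EGR2 and EGR3 stayed under the minimum in both libraries. NR4A1 passed it only through the THZ1 library (31 counts in THZ1 and 13 in DMSO) and IER5 only through the DMSO library (27 counts in THZ1 and 97 in DMSO), in each case the library where the gene is high.

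EGR1 encodes the zinc finger factor that is the most used readout of ERK and SRF signalling. It had 1256 counts in THZ1 and 333 in DMSO, or 82.0 and 15.1 normalized CPM. Its level was thus 5.42-fold higher in the THZ1 library, at a log2 ratio of 2.44 (2.27 to 2.62), at or above the ratios of 99.1% of assessed genes. Scaled to total counts the log2 ratio was 1.92 and scaled to mitochondrial mRNAs 0.75, which is above 0 but within 2-fold. EGR1 (ENSG00000120738) lies on chromosome 5 from 138465490 to 138469315 of GRCh38, a gene with 1 intron.

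EGR2, a factor best known from myelinating Schwann cells, had 13 counts in THZ1 and 3 in DMSO, a log2 ratio of 2.47 with a wide interval of 0.78 to 5.09. EGR3, a relative of EGR1 studied in T cells and muscle spindles, had 10 counts in THZ1 and 8 in DMSO, with a log2 ratio of 0.83 (−0.65 to 2.39). A difference in EGR3 was not detectable at this depth. EGR1 made up 98.2% of the reads of the 3 EGR genes in THZ1 and 96.8% in DMSO, so the sum of the family, 1279 counts in THZ1 and 344 in DMSO, moved with EGR1. EGR4, the remaining family member, had 2 counts in THZ1 and 0 in DMSO.

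NR4A2, also called NURR1 and needed for midbrain dopamine neurons, was the second gene with a large difference. It had 923 counts in THZ1 and 295 in DMSO, or 60.2 and 13.4 normalized CPM, with a log2 ratio of 2.17 (1.98 to 2.36), 4.50-fold higher in THZ1. NR4A1 (NUR77), which acts in T cell death and metabolism, had 31 counts in THZ1 and 13 in DMSO, with a log2 ratio of 1.75 (0.80 to 2.84). Neither call held on the mitochondrial reference, with NR4A2 at 0.48 and NR4A1 at 0.06, and NR4A1 is not called when the interval bound itself must pass 2-fold. NR4A3 (NOR1), the third member, had 85 counts in THZ1 and 86 in DMSO, with a log2 ratio of 0.51 (0.06 to 0.96). Total counts put it at −0.01 and the mitochondrial reference at −1.18.

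The makeup of the NR4A family therefore differed between the libraries, and this does not depend on scaling. NR4A2 held 88.8% of the family's reads in THZ1 (exact binomial interval 86.8 to 90.7) and 74.9% in DMSO (70.3 to 79.1). NR4A3 held 8.18% in THZ1 (6.59 to 10.0) and 21.8% in DMSO (17.8 to 26.2). The share of NR4A1 was 2.98% in THZ1 and 3.30% in DMSO, with intervals that overlap. NR4A2 (ENSG00000153234) lies on chromosome 2 from 156324432 to 156342348, NR4A1 (ENSG00000123358) on chromosome 12 from 52022832 to 52059507 and NR4A3 (ENSG00000119508) on chromosome 9 from 99821855 to 99866891.

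**Figure D2:**
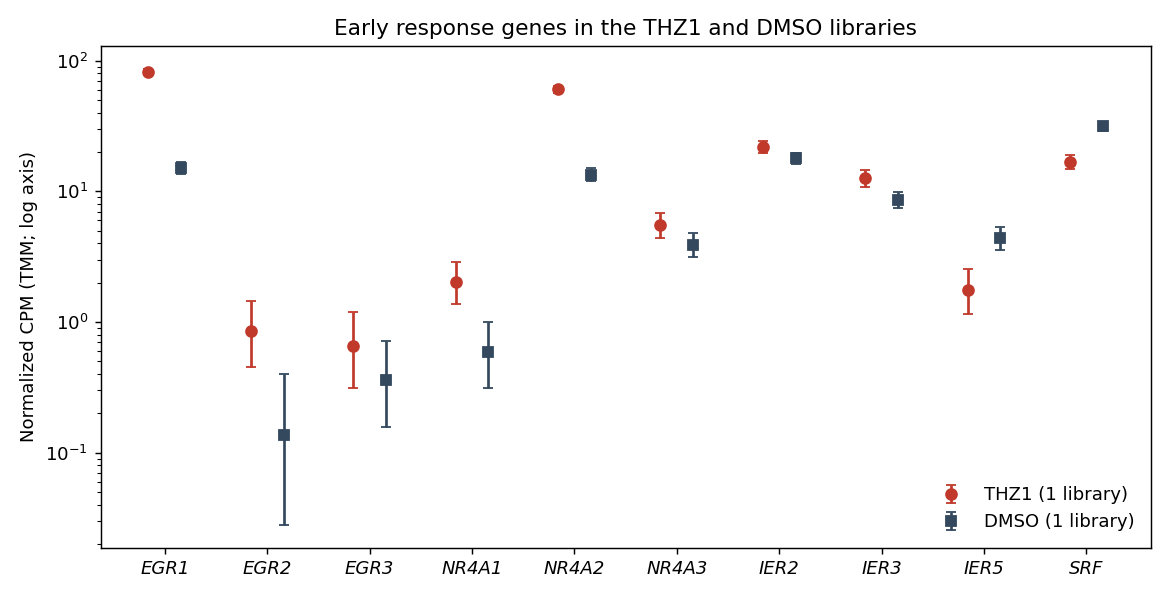
Normalized CPM (log axis) of the 10 genes in the THZ1 library (circles) and the DMSO library (squares), 1 library each, with exact 95% Poisson intervals for counting error only. EGR1 (82.0 and 15.1) and NR4A2 (60.2 and 13.4) are the farthest apart among genes with 30 or more counts, and SRF and IER5 are the only 2 of the 10 with a lower value in THZ1 on this scaling, joined by EGR3, NR4A3, IER2 and IER3 on the mitochondrial reference.

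The IER genes split. IER5, an early gene whose product acts with the phosphatase PP2A and on heat shock factor HSF1, had 27 counts in THZ1 and 97 in DMSO, or 1.76 and 4.40 normalized CPM. The log2 ratio of −1.30 (−1.99 to −0.69) was the lowest of the 8, a level 2.46-fold lower in THZ1. The interval reaches inside 2-fold, and IER5 is not called when the bound itself must pass 2-fold. IER5 (ENSG00000162783) lies on chromosome 1 from 181088712 to 181092899 and has no intron.

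IER3 (IEX-1), a small protein linked to survival signalling, had 192 counts in THZ1 and 189 in DMSO, with a log2 ratio of 0.55 (0.25 to 0.85). IER2, a nuclear early gene product, had 334 counts in THZ1 and 394 in DMSO, with a log2 ratio of 0.29 (0.07 to 0.50). Neither passed 2-fold, and both signs depend on scaling, at 0.03 for IER3 and −0.23 for IER2 with total counts and at −1.14 and −1.40 on the mitochondrial reference. Within the family IER5 held 4.88% of the reads in THZ1 (3.24 to 7.02) and 14.3% in DMSO (11.7 to 17.1). IER3 (ENSG00000137331) lies on chromosome 6 from 30743199 to 30744554 and IER2 (ENSG00000160888) on chromosome 19 from 13150415 to 13154908.

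SRF encodes the MADS box factor that binds the CArG boxes. It had 256 counts in THZ1 and 693 in DMSO, or 16.7 and 31.4 normalized CPM. The log2 ratio of −0.91 (−1.12 to −0.70), 1.88-fold lower in THZ1, stands just inside 2-fold. It was called lower with total counts (−1.42) and on the mitochondrial reference (−2.60). SRF (ENSG00000112658) lies on chromosome 6 from 43171299 to 43181507.

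**Figure D3:**
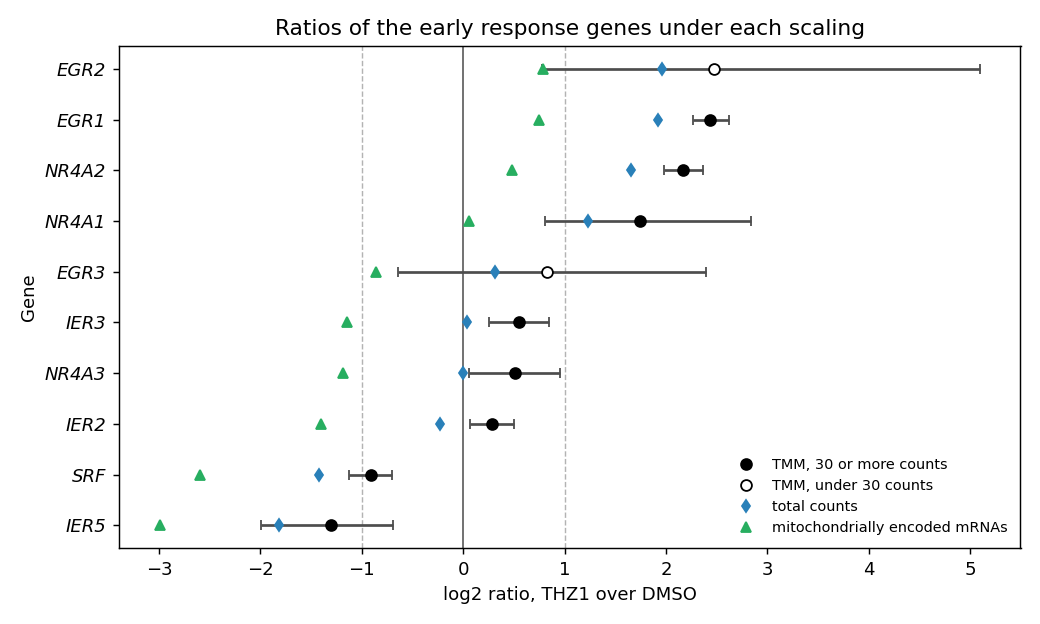
Log2 ratios of THZ1 over DMSO for the 10 genes, with 95% counting intervals, scaled by TMM (filled circles, open where a gene had under 30 counts), to total counts (diamonds) and to mitochondrially encoded mRNAs (triangles). Dashed lines mark 2-fold. EGR1, NR4A2, NR4A1 and EGR2 lie above 0 on each of the 3 scalings, NR4A1 at only 0.06 on the mitochondrial reference. IER5 and SRF lie below 0 on each. IER3, NR4A3, IER2 and EGR3 lie above 0 with TMM and below 0 on the mitochondrial reference.

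The distance between these genes can be read without any scaling, as the ratio of 2 genes in the same library. EGR1 had 4.91 reads for each read of SRF in THZ1 and 0.481 in DMSO, a 10.2-fold difference (8.43 to 12.4). For NR4A2 over SRF the values were 3.61 in THZ1 and 0.426 in DMSO, an 8.47-fold difference (6.94 to 10.3). SRF thus had fewer reads than these 2 genes in THZ1 and more in DMSO. IER2 and IER3 over SRF were 2.29-fold (1.86 to 2.83) and 2.75-fold (2.13 to 3.55) higher in THZ1. IER5 over SRF had a quotient of 0.754 with an interval that holds 1 (0.462 to 1.197).

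Members with like log2 ratios give quotients near 1 by construction. EGR1 over NR4A2 was 1.36 in THZ1 and 1.13 in DMSO, a 1.21-fold difference whose interval just leaves out 1 (1.004 to 1.45). The quotient for NR4A2 over NR4A1 was 1.31, with an interval that holds 1 (0.621 to 2.62). NR4A2 over NR4A3 differed by 3.17-fold (2.25 to 4.45). IER5 over IER3 was 0.141 in THZ1 and 0.513 in DMSO, a quotient of 0.274 (0.164 to 0.447). These pairs were chosen after the values were seen, and their intervals cover counting error only.

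Per kilobase of exon, the order of levels in THZ1 ran from EGR1 (26.1 normalized CPM per kb) through NR4A2 (15.2), IER3 (9.24), IER2 (7.10), SRF (3.98), NR4A3 (0.879), IER5 (0.421), NR4A1 (0.277) and EGR2 (0.230) to EGR3 (0.134). Counting intervals of neighbours overlapped only among the last 4. In DMSO the order was SRF (7.48), IER3 (6.32), IER2 (5.82), EGR1 (4.81), NR4A2 (3.37), IER5 (1.05), NR4A3 (0.618), NR4A1 (0.0808), EGR3 (0.0747) and EGR2 (0.0369). There the intervals of neighbours overlapped among the first 4 and among the last 3. EGR1 was thus at place 1 in THZ1 and at place 4 in DMSO, and SRF at place 5 in THZ1 and at place 1 in DMSO. Exonic length is the union over annotated transcripts, so the levels of genes with many alternative exons may be understated.

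The members below 0 with TMM, IER5 (4188 bases) and SRF (10209 bases), span less than 11 kb, as do EGR1 (3826 bases), IER2 and IER3 above 0. The NR4A genes span more (17917 to 45037 bases) and all stood above 0 with TMM, NR4A3 below 0 with total counts and on the mitochondrial reference. The 3 called higher have 1 intron (EGR1) or 7 (NR4A1 and NR4A2) in the transcript with the longest coding sequence, and IER5 and IER2 have 0. The AU-rich word ATTTATTTA, a word of unstable mRNAs, occurred 3 times in the 3′ UTR of IER5 and in no other of the 10. The shorter AU-rich word ATTTA occurred 10 times each in IER5 and NR4A3, 6 times in IER3, 4 times in NR4A2 and 0 to 3 times in the others. Of the other assessed coding genes 6.86% held ATTTATTTA, of which 22.1% were called lower and 5.77% higher, beside 22.0% and 7.70% of those without ATTTATTTA. Of 2047 other coding genes shorter than 11 kb, 26.5% were lower and 11.5% higher, beside 20.9% and 6.67% of longer ones.

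A CArG box in the 250 bases before a start was found for 128 other assessed coding genes, of which 26.6% were called lower and 4.69% higher. Of the 8861 without one, 21.8% were lower and 7.32% higher. The 4 other genes with at least 2 boxes, ING4, ZNF548, AGPAT1 and CUL4B, were called neither, with log2 ratios of −0.37, −0.09, 0.46 and 0.88. SRF and EGR1, with 2 boxes each, lay below and above the range of these 4.

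**Figure D4:**
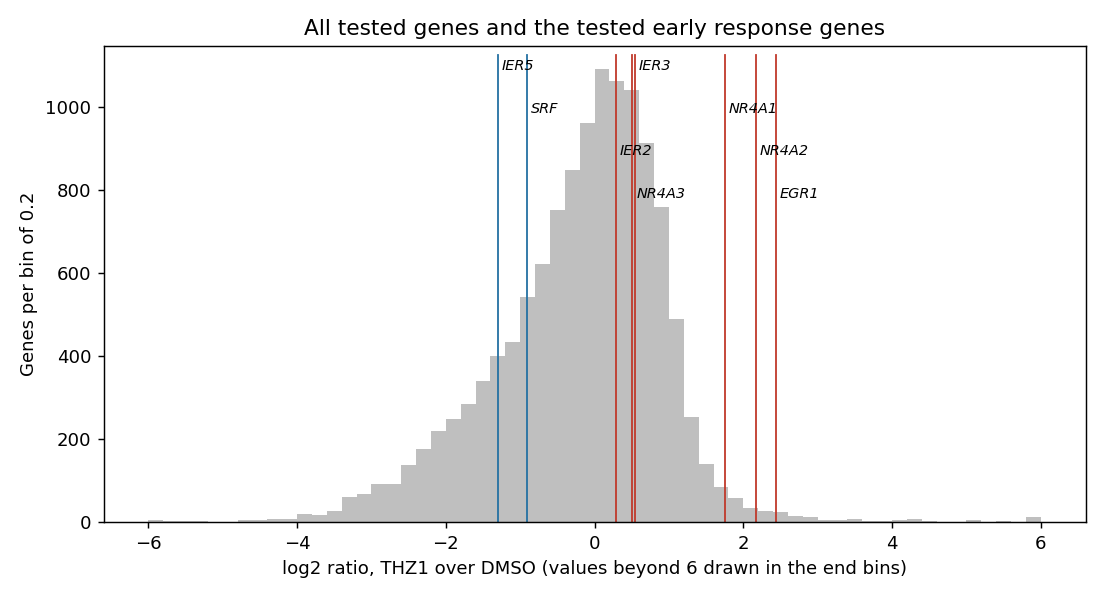
Number of assessed genes per bin of log2 ratio (THZ1 over DMSO, bins of 0.2), with lines at the 8 assessed early genes. NR4A1, NR4A2 and EGR1 lie in the thin upper tail, and IER5 and SRF on the broad lower side.

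The genes most like EGR1 in level per kb over the 2 libraries, by Euclidean distance on the log2 scale among coding genes, were the histone gene H2AC8 (distance 0.08, log2 ratio 2.51), the AP-1 subunit gene JUNB (0.35, 2.49) and UQCRB of respiratory complex III (0.49, 1.80). H2AC8 has near-identical histone copies, so its count is uncertain. Those most like IER5 were IL22RA1 (distance 0.04, log2 ratio −1.25), CDAN1 (0.05, −1.36) and LBHD1 (0.08, −1.202). With 2 libraries this likeness rests on 2 values per gene.

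The partners of SRF did not move as one. Among 5 assessed cofactor genes, 2 were lower, 0 higher and 3 neither, beside 21.3% lower and 9.7% higher over all assessed genes. MRTFA, the actin-sensing coactivator, had 33 counts in THZ1 and 382 in DMSO and was called lower, at a log2 ratio of −2.99 (−3.57 to −2.49), or 7.93-fold. Its relative MRTFB had 384 counts in THZ1 and 1319 in DMSO, with a log2 ratio of −1.25 (−1.42 to −1.09). The ternary complex factors, which link ERK to SRF, had ratios near 0 with TMM, at 0.09 for ELK1, 0.16 for ELK3 and −0.18 for ELK4. On the mitochondrial reference they stood at −1.60, −1.53 and −1.87. All 5 assessed cofactor genes were called lower there, as were 10000 of all 12457 assessed genes. MYOCD, the muscle coactivator, had 0 counts in both.

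Kinases and CREB factors upstream of these genes were mostly within 2-fold, with 1 of 11 lower and 0 higher. Over all assessed genes 21.3% were lower and 9.7% higher. The lower gene was CREB1, which binds cAMP response elements, with 457 counts in THZ1 and 1820 in DMSO and a log2 ratio of −1.47 (−1.62 to −1.32). The GTPase RHOA (0.89), the ERK1 gene MAPK3 (0.84) and the MSK1 kinase gene RPS6KA5 (0.81) had the largest positive values, none past 2-fold.

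Of the cytoskeletal and matricellular targets of SRF and the MRTF coactivators 17 were assessed: 3 were lower, none was higher, 14 were neither, and the median was −0.52. CCN2, a secreted matrix signalling protein also driven by YAP, had 1874 counts in THZ1 and 15842 in DMSO, with a log2 ratio of −2.55 (−2.62 to −2.49). FHL2 (−1.43) and the calponin gene CNN2 (−1.03) were the other lower ones, and the tropomyosin gene TPM2 stood at 0.92. In all, 13 of the 17 stood below 0, beside 6383 of all 12457 assessed genes, and the share called lower (17.6%) was near the 21.3% of all assessed genes.

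Of 8 assessed EGR co-repressors and described EGR1 targets 4 were lower, 4 were neither and 0 were higher, beside 21.3% lower and 9.7% higher over all assessed genes. Their median was −0.71. NAB2, an EGR co-repressor that EGR proteins themselves induce, had 18 counts in THZ1 and 116 in DMSO, with a log2 ratio of −2.13 (−2.97 to −1.44). NAB2 and another of the 4 lower genes passed the minimum only through the DMSO library, where they are high. The count of lower genes and the median include both. THBS1, which encodes thrombospondin, had 5976 counts in THZ1 and 23857 in DMSO and stood at −1.47 (−1.51 to −1.43). The other co-repressor gene, NAB1, was within 2-fold at 0.69.

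Of relatives and partners, IER5L, the paralog of IER5, had 128 counts in THZ1 and 65 in DMSO and was called higher, with a log2 ratio of 1.497 (1.06 to 1.96), opposite to IER5. This value is 0.98 with total counts, within 2-fold, and −0.19 on the mitochondrial reference. The retinoid X receptor genes, whose products pair with NR4A1 and NR4A2, had ratios of −0.84 (RXRA) and −0.89 (RXRB), and RXRG and the EGR-related gene WT1 had 0 counts in both libraries.

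Other primary response genes outside AP-1 and the DUSP phosphatases were mostly lower, unlike EGR1 and NR4A2. Of 27 assessed 17 were lower, 10 were neither and none was higher, beside 21.3% lower and 9.7% higher over all assessed genes. Their median was −1.40. PLK2, a stress-induced polo-like kinase gene, had 448 counts in THZ1 and 4933 in DMSO, with a log2 ratio of −2.93 (−3.08 to −2.80). The RNA-binding protein gene ZFP36L2 (−2.68), the EGFR ligand gene HBEGF (−2.55) and the G protein regulator gene RGS2 (−2.31) followed among genes with 100 or more counts in a library. KLF2, with 5 counts in THZ1 and 82 in DMSO, stood further out at −3.38 (−5.17 to −2.23) and is named after its value was seen. KLF2, RGS2 and other lower genes of this list passed the minimum only through the DMSO library, where they are high. Over the 6 lists, 23 of 71 assessed genes had a log2 ratio above 0 with TMM, 9 with total counts and 0 on the mitochondrial reference. Of all 12457 assessed genes 6074 were above 0 with TMM. That share was not worked out for the other scalings. The median of all was −0.54 with total counts and −1.72 on the mitochondrial reference, where 10000 of the 12457 were called lower. EGR1, NR4A2 and NR4A1 were above 0 on each of these scalings, NR4A1 at only 0.06 on the mitochondrial reference. EGR2 was above 0 on each as well, from under 30 counts.

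**Figure D5:**
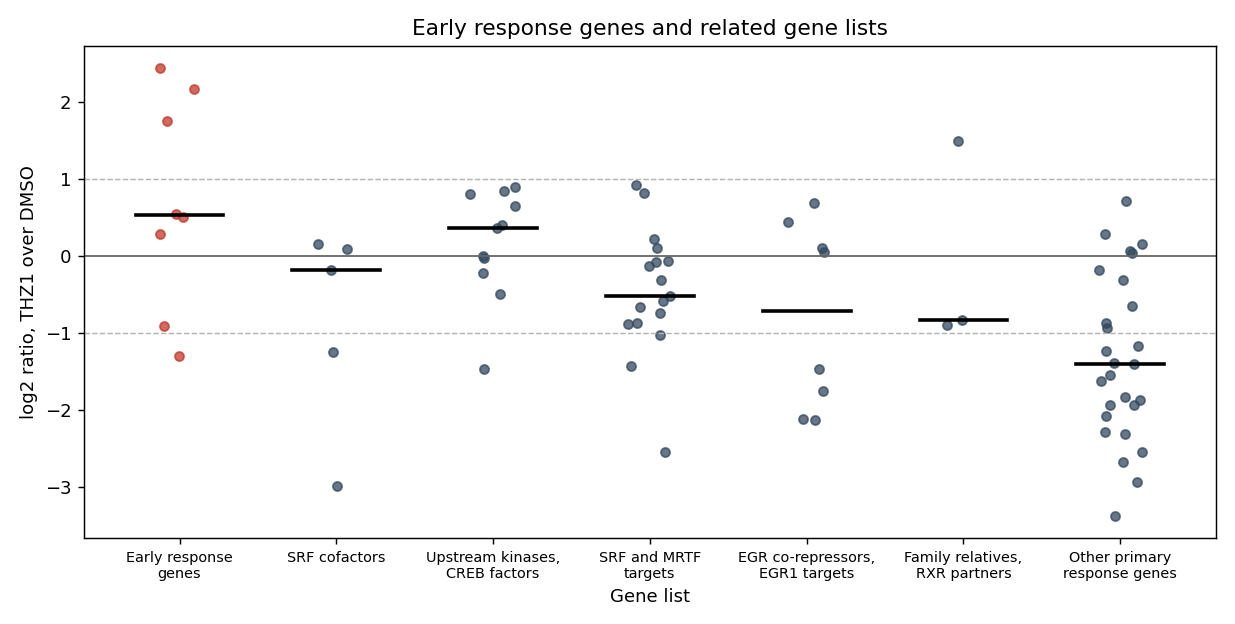
Log2 ratios of THZ1 over DMSO (TMM scaling) for the assessed early genes and for the assessed members of 6 related lists, 1 point per gene, with horizontal bars at the medians and dashed lines at 2-fold. The early genes have a median of 0.53 and the other primary response genes of −1.40. On the mitochondrial reference, which is not drawn, every point of the 6 lists lies below 0. The early genes then have a median of −1.16 and all assessed genes of −1.72.

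Neighbouring genes on the chromosome gave further context. Annotated genes that overlap a member (AC025259.3 at NR4A1, AC011446.2 at IER2, AC055854.1 at EGR3 and IER3-AS1 at IER3) had at most 3 counts in either library. Without a stated strand setting, the effect of overlap on the members' own counts was not tested. ADO, a thiol dioxygenase gene 3513 bases from EGR2, had 92 counts in THZ1 and 643 in DMSO and was lower, with a log2 ratio of −2.27 (−2.61 to −1.96). CUL9, 668 bases downstream of SRF, stood at −0.17 (−0.44 to 0.09), and STX10 beside IER2 and FLOT1 beside IER3 at 0.64 and 0.31, all within 2-fold.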

How the data were processed

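Per the labels' protocols, TRIzol RNA of T24/R cells went into KAPA mRNA HyperPrep libraries. The authors deposited raw counts of reads for each gene, which their whole-number values show were not normalized. GRCh38, HISAT2 2.1.0, featureCounts 1.6.0 and Trimmomatic 0.38 are listed, per the submitters' processing notes. Annotation release, strand setting and multi-mapping rule: not given in the sources used here. Symbols were found for 58472 of 58884 IDs. Coordinates, exons and 3′ UTRs come from GENCODE 29 (GRCh38).

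TMM factors from edgeR 4.0.16 (R 4.3.3) over the assessed genes scaled both libraries. Log2 ratios add 0.5 to each count, with exact Clopper-Pearson intervals of the THZ1 share of both counts. No molecular identifiers are stated, so reads are not taken as separate molecules, and intervals and the floor of 3 counts per library (0.196 normalized CPM in THZ1, 0.136 in DMSO) cover counting error only. The calls were tried on simulated counts with known changes and counting noise only, the noise that the intervals assume. Variation between libraries was not simulated. Quotients of 2 genes carry exact conditional odds ratio intervals (scipy 1.17.1).

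The members and lists were chosen with earlier results of these data known. The naming rule takes all 10 members, every gene of lists of up to 6 genes, up to 4 genes per other list furthest from 0 with 100 or more counts in a library, the 3 genes most like the members with the highest and the lowest ratio, and genes overlapping a member. Not every gene that the rule would name is reported here. The neighbours within 5 kb and the genes with at least 2 CArG boxes were named after their values were seen. Other scalings were tried (total counts, size factors of DESeq2 1.42.0, the upper quartile, 13 mitochondrially encoded mRNAs), as were minimums of 1 and 100 counts, coding genes alone, a call that needs the whole interval past 2-fold, libraries thinned to the same total, and 5 added counts. The software was Python 3.11.15 with pandas 2.3.3, numpy 2.4.6 and matplotlib 3.10.9.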

Additional observations from a re-analysis of the deposited data

How the results depend on the processing

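On the main scaling 1 of the 8 assessed early genes was lower and 3 were higher, with a median log2 ratio of 0.53. With total counts 2 were lower and the median was 0.013, beside −0.54 for all assessed genes. Scaled to mitochondrial mRNAs 5 of the 8 were lower and 0 were higher, and their median turned to −1.16. NR4A3 was then at −1.18, IER2 at −1.40 and IER3 at −1.14. Of all 12457 assessed genes 10000 were lower on this reference, and the median of all was −1.72. A count minimum of 100, which leaves 5 of the genes, and an interval bound of at least 2-fold each left 0 lower and 2 higher, and a minimum of 1 gave a median of 0.69 over 10 genes. DESeq2 size factors, the upper quartile, thinning, 5 added counts and coding genes alone changed neither count by more than 1.5 times. No paired analysis was possible because each group has 1 library.

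Over all assessed genes 1208 were higher and 2657 lower (31.3% and 68.7% of those called), against 368 and 4260 with total counts (7.95% and 92.0%) and 88 and 10000 on the mitochondrial reference (0.872% and 99.1%). A minimum of 1 gave 2223 higher (41.0% of those called) and the stricter bound 670. Lower genes in the lists numbered, with total counts and on the mitochondrial reference, 9 and 15 of the cytoskeletal targets, 2 and 8 of the upstream genes, and 2 and 2 of the relatives. On the mitochondrial reference they also numbered 5 of the SRF cofactors, 8 of the EGR list and 26 of the other primary response genes. The counts carry no absolute amount of RNA per cell.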

Other observations

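Processed pseudogenes of ribosomal protein genes near 2 of the early genes had reads in the THZ1 library alone. RPL7P19, 4429 bases downstream of EGR1, had 38 counts in THZ1 and 0 in DMSO. This is 18.2-fold a DMSO level at the floor of 3 counts, and the lower bound of its log2 ratio was 3.82. RPL12P42, 3051 bases from IER2 on the other strand, had 15 counts in THZ1 and 0 in DMSO. This is 7.20-fold that floor, and the lower bound of its log2 ratio was 2.37. Of 51 assessed ribosomal protein pseudogenes in the whole series, 40 were called higher and 0 lower, with a median log2 ratio of 1.57. Over all assessed genes 9.7% were higher and 21.3% lower. The values of these pseudogenes are with TMM scaling, and the mitochondrial reference moves all log2 ratios by −1.69, more than this median. Among all 1432 listed, 4 had 0 counts in DMSO and 10 or more in THZ1, and 7 had 0 in THZ1 and 10 or more in DMSO, and reads of such copies can be shared with their parent genes.

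AL359710.1, a noncoding gene on the opposite strand whose nearest end lies 1966 bases before NR4A3, had 15 counts in THZ1 and 1 in DMSO, under the minimum for assessment, with a log2 ratio of 3.89 (1.73 to 9.83). The noncoding gene downstream of NR4A2, AC074099.1, had 1 count in THZ1 and 0 in DMSO. These genes were singled out after their values were seen.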
